A study of Arabidopsis thaliana with 2 samples.

Results

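CBF1 (AT4G25490), CBF2 (AT4G25470) and CBF3 (AT4G25480, listed as DREB1A in RefSeq) form a tandem cluster of cold activator genes on chromosome 4 of Arabidopsis thaliana. Of the 8983 regions that were called for PRR5 in this ChIP-seq data set, 2 were centred in one of these genes or within 3 kb of either end. The choice rested on position alone, and reads, false discovery rates and strand counts were not used. PRR5 (PSEUDO-RESPONSE REGULATOR 5) is a repressor of the circadian clock, and the question was where it sits on the genome. The ChIP group was 1 library of DNA pulled down with anti-GFP antibody, and the input group was 1 library of DNA without that pull-down. Both groups had the source PRR5pro:FLAG-PRR5-GFP/prr5, that is, the prr5 mutant with a FLAG- and GFP-tagged PRR5 driven by the PRR5 promoter. Whole plants at day 18, raised on MS medium with sucrose at 2% and gellan gum at 0.3% and kept in 12 h of light and 12 h of dark, were sampled 10 h after lights came on, and the labels name no cold treatment. No group without the tagged protein was analysed here, whole plants mix all cell types, and with 1 library a group no spread between plants can be given.

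CBF proteins are AP2/ERF transcription factors that bind the C-repeat element in the promoters of cold-responsive (COR) genes and raise freezing tolerance. Their own transcripts rise within minutes to hours of cold, under the bHLH activator ICE1 and the calmodulin-binding CAMTA factors. How strongly they respond depends on the time of day, and plants that lack PRR5 together with its relatives PRR7 and PRR9 are known to have high CBF transcript levels and to tolerate freezing better. CBF2, CBF3 and CBF1 lie in this order along the chromosome as a direct repeat. The RefSeq gene table used here gives no strand, so it does not tell which end of a gene is its start. Distances are therefore given to the lower-coordinate and the higher-coordinate end of each gene. Whether a region lies upstream or downstream of a gene was not determined.

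The list held 5112270 reads in its regions, with a median of 194 reads and 150 bp a region. The depth of each library is not given in the sources used here. Intervals of reads are exact 95% Poisson intervals. They cover counting error only, and they are too narrow where reads are PCR copies of one molecule.

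Both regions lay between genes, each a short way beyond the higher-coordinate end of a CBF gene. The first was on chromosome 4 from 13016361 to 13016510 (TAIR9), a span of 149 bp in the space between CBF2 and CBF3. It held 6786 reads (6625 to 6949), and its false discovery rate in the authors' list was 1.04e-202%. The second was on chromosome 4 from 13023497 to 13023638, a span of 141 bp between CBF1 and RS40 (AT4G25500), which encodes an arginine/serine-rich splicing factor. It held 8604 reads (8423 to 8788), and its false discovery rate was 7.81e-244%. The region beside CBF1 thus had 1.27 times the reads of the region beside CBF2 (95% interval of the ratio 1.23 to 1.31, counting error only), and 1.34 times per 100 bp. These are 2 places in 1 list rather than replicates, so no p is given for their difference.

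**Figure D1:**
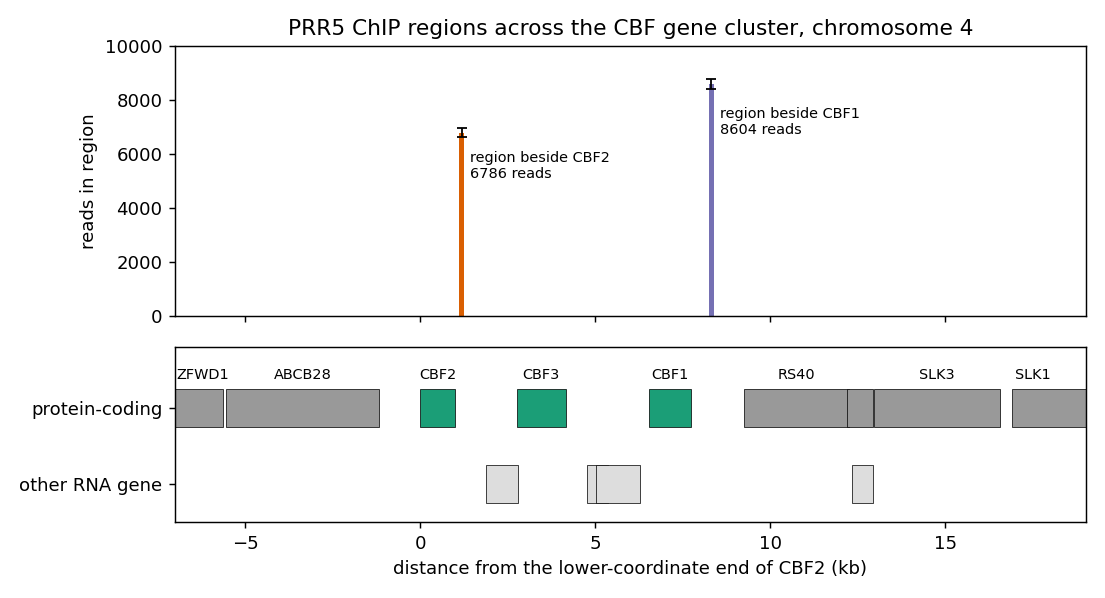
Reads in each region (upper panel, bars at the true width of the region with exact 95% Poisson intervals) over the annotated genes (lower panel, green for CBF genes), against distance from the lower-coordinate end of CBF2 in kb. The bars of 6786 and 8604 reads stand in the spaces on the higher-coordinate side of CBF2 and of CBF1. No region stands in any of the 3 CBF genes.

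The distances to the gene ends place the first region between CBF2 and CBF3 and nearer to CBF2. Its centre lay 1185.5 bp from the lower-coordinate end of CBF2 and 200.5 bp beyond the higher-coordinate end. It lay 1574.5 bp short of the lower-coordinate end of CBF3 and 2964.5 bp from the higher-coordinate end. For CBF1 these distances were 5344.5 bp and 6560.5 bp. A long noncoding RNA gene, AT4G07385, lay 705.5 bp from the centre on the CBF3 side, and overlapped the lower-coordinate end of CBF3 by 29 bp. ABCB28 (AT4G25450), an ABC transporter gene, lay 2350.5 bp away on the other side of CBF2. CBF3 was thus reached only by this region, which it shares with CBF2, and not within 1 kb.

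The second region was within 3 kb of CBF1 and of no other gene of the trio. Its centre lay 1787.5 bp from the lower-coordinate end of CBF1 and 571.5 bp beyond the higher-coordinate end. RS40 was 930.5 bp away on the other side, so CBF1 was the nearer neighbour. The lower-coordinate ends of CBF3 and CBF2 lay 5557.5 bp and 8317.5 bp from the centre, and their higher-coordinate ends 4167.5 bp and 7332.5 bp. A long noncoding RNA gene, AT4G07395, and a further noncoding gene, AT4G03125, lay 2963.5 bp and 2045.5 bp away, on the far side of CBF1. The assay gives positions only, and does not tell which of these neighbours a bound protein would act on.

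The other spaces of the cluster held no region. None was centred in the 1164 bp between ABCB28 and CBF2, on the lower-coordinate side of CBF2. The 2379 bp between CBF3 and CBF1, on the lower-coordinate side of CBF1, held none either. None was centred inside CBF1, CBF2, CBF3, ABCB28 or RS40. Within 3 kb, CBF1 and CBF2 thus had a region on the higher-coordinate side only, and CBF3 on the lower-coordinate side only. The 3 coding sequences are close copies, and the handling of reads that map to more than one place is not given in the sources used here, so the lack of a region inside them is a statement about the deposited list only. The next region outside the 3 kb limit lay 14.7 kb from the nearest CBF gene.

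All 3 CBF genes had a region within 3 kb, where 46.7% of the 27444 protein-coding genes did. The same held when only regions with false discovery rates no higher than 5% were counted, against 34.2% of genes. With a limit of 1 kb it was CBF1 and CBF2, against 28.0% of genes. A region within 3 kb was therefore common, while only 90 protein-coding genes (0.328%) had a region of 6786 reads or more within 3 kb. That cut is the count of the region beside CBF2, so CBF1, CBF2 and CBF3 met it by construction. ABCB28 and RS40 met it as well, through the same 2 regions.

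Among all regions, the one beside CBF1 ranked 18 and the one beside CBF2 ranked 37 by reads. They held 44.4 and 35.0 times the reads of the median region, and only 0.412% of the list had as many reads as the second. On chromosome 4 alone, with 1342 regions, they ranked 4 and 8. By false discovery rate they ranked 28 and 41, and by reads per 100 bp 36 and 71. Both were of ordinary width, since the 50 regions with the most reads had a median length of 146 bp (79 to 2914). By these measures the region beside CBF1 came before that beside CBF2 each time.

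**Figure D2:**
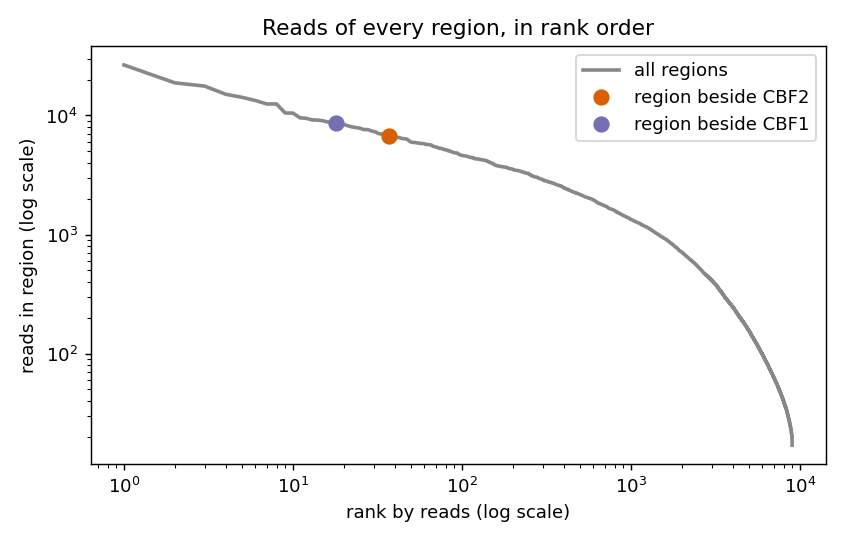
Reads in each of the 8983 regions (log scale) against rank by reads (log scale), as a grey line, with the CBF cluster regions as points. The points stand at ranks 18 and 37, well above the median of 194 reads.

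The regions next to them in rank by reads had varied neighbours. Directly above the region beside CBF1 came regions in ATPC2 (AT1G15700), which encodes a gamma subunit of the chloroplast ATP synthase, with 8823 reads over 182 bp, and in the protein kinase gene CIPK15 (AT5G01810), with 8805 reads over 1326 bp. Directly below it came one of 2914 bp with 8473 reads, whose nearest protein-coding gene, AT5G32440, was 207420 bp away, and one of 141 bp with 8411 reads beside AT5G20180. Around the region beside CBF2 stood regions in the reticulon-like gene BTI1 (AT4G23630, 6885 reads), beside the phototropism gene RPT2 (AT2G30520, 6838 reads), in the chloroplast beta-amylase gene CT-BMY (AT4G17090, 6769 reads) and in the zinc finger gene SZF1 (AT3G55980, 6596 reads). The last 3 had higher false discovery rates in the authors' list than the region beside CBF2, at 2.32e-176%, 8.36e-63% and 3.37e-72%, and that of BTI1 was listed at 0.

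The position beside a gene was shared by many of the strongest regions. Of the 50 with the most reads, 25 were centred inside a protein-coding gene, 19 outside but within 1 kb of one, and 6 farther away. Both CBF regions are among the 19. The same shares over all 8983 regions were not worked out. For those 19 the distance to the nearest gene ranged from 109 to 947 bp with a median of 394 bp. The 200.5 bp at CBF2 and the 571.5 bp at CBF1 fell on either side of that middle. The distance was taken to either end of a gene, so it does not tell start from far end.

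The CBF regions had no close neighbours on the chromosome. Their centres were 7132 bp apart with no region between them. The next region on the CBF2 side was 19.8 kb away, with 51 reads and a false discovery rate of 5.64%, and on the CBF1 side 14.1 kb away, with 22 reads and a rate of 100%. Across the list, neighbouring centres were a median of 6.82 kb apart. Within 50 kb of either centre lay 7 other regions of 22 to 1741 reads (median 232), 5 of them with rates no higher than 5%, a level met by 64.4% of all regions. The CBF regions, with 15390 reads together, held 83.6% of the reads in regions on that stretch.

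**Figure D3:**
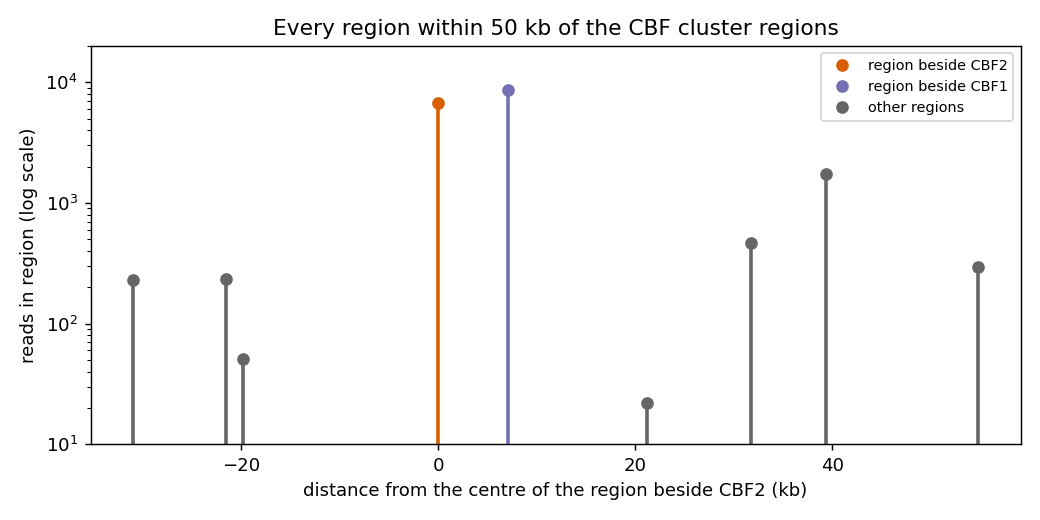
Reads in each region (log scale, stems drawn from 10) against distance in kb from the centre of the region beside CBF2, for all regions within 50 kb of the CBF cluster regions. The other 7 regions, in grey, reach 1741 reads at most. None is nearer than 19.8 kb on this axis, or than 14.1 kb to the region beside CBF1.

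So close a pair of strong regions was rare in the list. Among the 50 regions with the most reads, the CBF regions were the only pair with centres within 10 kb of each other, and among the 100 with the most reads there were 2 such pairs. The one other case of neighbours in the list that were both among the 50 was at the clock genes PRR9 and CCA1 on chromosome 2, with 12486 and 10492 reads and centres 12916.5 bp apart. The sizes of 50 and 100 and the distance of 10 kb were chosen after the positions had been seen.

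Forward and reverse reads were close to equal in both regions. The region beside CBF2 had 3349 forward and 3437 reverse reads, or 49.4% forward (95% Clopper-Pearson interval 48.2 to 50.5). The region beside CBF1 had 4267 forward and 4337 reverse reads, or 49.6% forward (48.5 to 50.7). Neither passed the test for unequal strands (two-sided exact binomial test with Benjamini-Hochberg adjustment over all 8983 regions, p = 0.861 and p = 0.935). Unequal strands were called in 0.935% of all regions and in 6 of the 50 with the most reads, whose forward share ran from 44.1 to 52.4%.

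**Figure D4:**
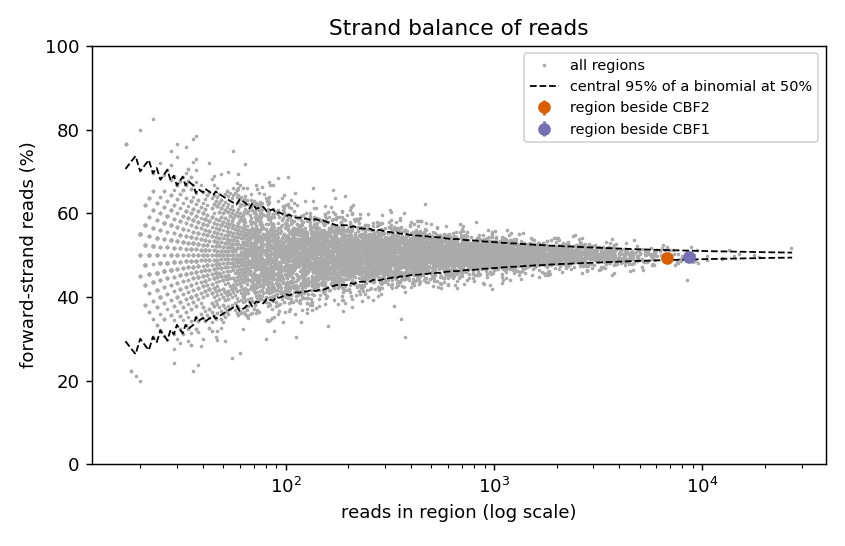
Forward-strand reads in percent against reads in the region (log scale) for all regions (grey), with the CBF cluster regions as coloured points with 95% Clopper-Pearson intervals and the central 95% of a binomial at 50% as dashed lines. Both CBF regions, at 49.4 and 49.6% forward, lie between the dashed lines.

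Relatives of the CBF genes elsewhere in the genome had regions with fewer reads, or none. Of 6 further DREB-type genes, 3 (95% Clopper-Pearson interval of the share 11.8 to 88.2%) had a region within 3 kb, against 46.7% of all protein-coding genes. DDF1 (AT1G12610), a DREB1-type factor gene, had 543 reads (498 to 591) in a region inside the gene. DREB2C (AT2G40340), of the DREB2 type, had 438 reads (398 to 481) in a region 8 bp outside it and also within 1 kb of AT2G40350. DDF2 (AT1G63030) had 229 reads (200.3 to 260.7) inside the gene. CBF4 (AT5G51990), a close relative outside the cluster, and DREB2A and DREB2B of the drought and heat response had none. All 3 counts were far below the 6786 and 8604 reads at the cluster.

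Genes that act upstream of CBF expression were mixed. Of 24 such genes 16 (66.7%, 95% interval 44.7 to 84.4) had a region within 3 kb, an interval that holds the 46.7% of all protein-coding genes. With a limit of 1 kb the count was again 16, while the share of all protein-coding genes was 28.0%, below that interval. The best region held a median of 2297.5 reads in these 16, against 354 over all 12817 protein-coding genes with a region. The list includes clock genes already known to have strong regions here, so its count is not independent of them. The 5 with the most reads were all clock factors, namely PRR9 (AT2G46790, 12486 reads), CCA1 (AT2G46830, 10492 reads), LHY (AT1G01060, 7957 reads), PRR7 (AT5G02810, 5777 reads) and RVE8 (AT3G09600, 5500 reads). All 5 had a second protein-coding gene no more than 1 kb from the region, namely AT2G46780, PSI-P, UMAMIT28, RHL2 and AT3G09590 in that order. CCA1 and LHY are MYB factors that bind the CBF promoters, and RVE8 is a relative of both. The region beside CBF1 held fewer reads than those of PRR9 and CCA1 and more than the others of this list, and that beside CBF2 fell between LHY and PRR7. The 8 without a region within 3 kb were the cold-signalling genes ICE1, ICE2, CAMTA2, CAMTA3, HOS1 and SIZ1 and the clock genes TOC1 and RVE4. The other 11 with a region had 73 to 4850 reads in their best one, and they include cold-signalling genes too, such as OST1, for a kinase that acts on ICE1, with 656 reads and CAMTA1 with 317 reads.

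Genes that CBF proteins activate, or that respond with them, were likewise mixed. Of 14 such genes 9 (64.3%, 35.1 to 87.2) had a region within 3 kb, an interval that again holds the 46.7% of all genes. With a limit of 1 kb it was again 9, while the share of all protein-coding genes was 28.0%, below that interval. This list too was chosen with earlier results of these data known, so the difference was not tested. The best region held 361 to 4319 reads in these 9, with a median of 1509 that counts one region for both KIN1 and KIN2. COR413IM1 (AT1G29395), which encodes a cold-regulated protein of the chloroplast inner membrane, led with 4319 reads (4191 to 4450) inside the gene and also within 1 kb of ML5. ZAT10 (AT1G27730), a zinc finger factor gene, had 2096 reads inside it, also within 1 kb of TAF4B. KIN1 (AT5G15960) and KIN2 (AT5G15970), neighbouring genes for small cold-induced proteins, had 1946 reads in one shared region, which lay 466 bp from KIN2 and 2383 bp from KIN1 and also within 1 kb of AT5G15980. A further region of 310 reads was centred inside KIN1. GOLS3 (AT1G09350), for a galactinol synthase that makes raffinose-family sugars, had 1509 reads 29.5 bp outside the gene. No region lay within 3 kb of COR15A, COR15B, LTI30, RD29A or RD29B. A best region of 1000 reads or more was found for 6 of the 14 (KIN1 and KIN2 sharing theirs), 10 of the 24 upstream genes and none of the 6 relatives, against 11.6% of all protein-coding genes. None of the 14 reached the reads of either CBF region.

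**Figure D5:**
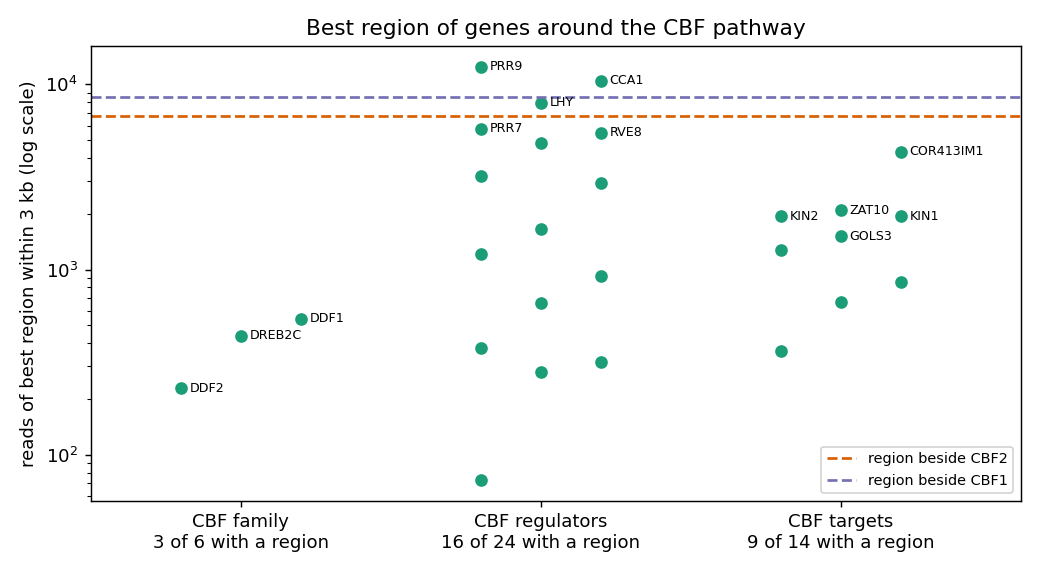
Reads of the best region within 3 kb (log scale) for each gene of the relatives (CBF family), upstream genes (CBF regulators) and target genes (CBF targets) that had one, with the 5 highest of each list named and the CBF cluster regions as dashed lines at 6786 and 8604 reads. PRR9, CCA1 and LHY stand above the lower line, and PRR9 and CCA1 above both.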

How the data were processed

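The data were 1 list of regions called in ChIP DNA over input DNA, from 1 library each. Reads were mapped to TAIR9, per the file headers and the submitters' processing notes; no aligner or caller is named there. Each deposited row held whole-number counts of reads in a region, not normalised and with no library named, and a false discovery rate in percent. These rates are the authors' own. Genes came from the RefSeq table of assembly TAIR10.1 (all 44 list loci matched). It is of another build, so none of its coordinates are printed; the TAIR10 release is known to have kept the TAIR9 chromosomes, and distances rest on that, which was not tested here.

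A gene had a region when the centre lay in it or within 3 kb. Strand counts were tested with the exact binomial test (SciPy 1.17.1), checked on simulated data. The named genes were the CBF genes, their neighbours within 3 kb, the 5 genes with the most reads in each list and the regions next in rank. OST1 and CAMTA1 were added outside this rule, as cold-signalling genes with a region. Others, and genes without a region, are named only as such. The genes and lists were chosen with earlier results of these data known. Alternatives were other distances, overlap in place of the centre, stricter sets of regions, merging and other ranks. Motifs in the CBF promoters were planned and not analysed here, since no sequence was used.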

Additional observations from a re-analysis of the deposited data

How the results depend on the processing

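Both regions remained under every alternative except a distance of 500 bp, which left 1 region and 1 CBF gene, CBF2. With 1 kb, 2 CBF genes had a region. The share of protein-coding genes with a region was 28.0% with 1 kb, 22.1% with 500 bp and 15.4% with the 2245 regions of lowest false discovery rate. In the same order, the upstream list kept 16, 13 and 12 of its 24 genes and the target list 9, 8 and 7 of 14. The CBF relatives kept 3, 3 and 1 of 6, the last being DDF1, through a region of 334 reads 1703 bp away. By false discovery rate the regions beside CBF1 and CBF2 ranked 28 and 41, and by reads per 100 bp 36 and 71, in place of 18 and 37. The ratio of their reads was 1.34 per 100 bp, an alternative chosen after seeing the data. Distances from the nearest edge moved by no more than the width of a region, and the strand result kept its side of the threshold. No paired analysis was possible because each group had 1 library. That also means that counting error is the only error that could be given.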
